A study of Homo sapiens with 10 samples.

Results

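Imprinted genes are transcribed mainly from the maternal or mainly from the paternal copy, as set by DNA methylation laid down in the germ line. A set of 10 such genes outside the Prader-Willi region were read in cells lacking ZNF274: H19, MEG3, DLK1, PEG3, PEG10, CDKN1C, PLAGL1, GRB10, NNAT and MEST. They were taken by name as controls for a loss of imprinting, not by a threshold on their values, and are 10 of the 24050 genes listed in either of the count tables. All 10 were read in neural progenitor cells (NPCs) and 9 in HEK293T cells. MEG3 was not analysed here in HEK293T cells.

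RNA-seq of poly(A) RNA was available for 3 WT and 3 ZNF274 KO libraries of HEK293T cells, a line from human embryonic kidney, and for 2 WT and 2 ZNF274 KO libraries of NPCs derived through embryoid bodies from H1 human embryonic stem cells. Both KO backgrounds were made by CRISPR-Cas9 with guides upstream and downstream of ZNF274 and puromycin selection, and were grown from single cells or single colonies. The labels state that clones were independent, but not which clone gave which library, so P values measure the spread between these libraries, part of which may be technical. Libraries are named here by the numbers in their labels: WT S15, S16 and S17 and KO S18, S19 and S20 for HEK293T, and WT S3 and S5 and KO S1 and S2 for NPCs. Total counts ran from 21421013 to 32285876 in HEK293T libraries and from 18621266 to 23035490 in NPC libraries. ZNF274 had 423 to 496 counts in the 5 WT libraries and 0 in the 5 KO libraries. Of the embryonic kidney markers, SALL1 (32.8 CPM) was present in WT HEK293T cells, whereas PAX8 and OSR1 were at 0.

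ZNF274 is a KRAB zinc finger protein (KZFP), a family that recruits TRIM28 and SETDB1 to deposit repressive H3K9me3. Imprints are also held by KZFPs, since ZFP57 and ZNF445 bind methylated imprinting control regions and bring the same corepressor to them. When such a region loses its methylation, both copies of a gene can become active or both silent, and in a cell with 1 copy from each parent, a gene read from both equally would double. HEK293T cells carry extra chromosome copies, so a doubling serves there only as a size for comparison. Bulk counts do not separate the alleles, so the values below are summed over both.

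In the hg19 annotation used here the maternally expressed genes were H19 (ENSG00000130600, chr11:2016396-2025782, minus strand), CDKN1C (ENSG00000129757, chr11:2904443-2907005, minus strand) and MEG3 (ENSG00000214548, chr14:101245747-101327368, plus strand). The paternally expressed genes were DLK1 (ENSG00000185559, chr14:101192042-101204561, plus strand), PEG3 (ENSG00000198300, chr19:57321445-57352096, minus strand), PEG10 (ENSG00000242265, chr7:94285637-94299007, plus strand), PLAGL1 (ENSG00000118495, chr6:144261437-144385736, minus strand), NNAT (ENSG00000053438, chr20:36149608-36152092, plus strand) and MEST (ENSG00000106484, chr7:130126012-130146306, plus strand). The copy that is read at GRB10 (ENSG00000106070, chr7:50657760-50861159, minus strand) depends on the isoform and tissue. H19 and MEG3 are noncoding RNAs and the other 8 genes code for proteins. MEG3 overlaps microRNA genes and PLAGL1 overlaps HYMAI on the same strand, while PEG10 overlaps SGCE, NNAT lies within BLCAP and MEST overlaps COPG2 and MESTIT1 on the other strand. Whether the counting used strand is not given in the sources used here, so reads in such overlaps may not be separated.

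The best known of the control regions lies upstream of H19 and is shared with IGF2. CTCF binds it on the unmethylated maternal copy and insulates IGF2 from distal enhancers that then serve H19. The CTCF core, spelled CCGCG, N, GG, N and GGCAG without gaps, was searched on both strands over chr11:2016396-2035782 (GRCh37), the annotated H19 gene and 10 kb before it, and was found at 5 places, all in introns of long H19 transcripts. They are printed because IGF2 had the highest log2 FC in NPCs among the 10 genes and the list of 36 further imprinted genes described later. Capitals mark the core, in which the 5 sites differed from each other at position 6 alone, counted from 1 at its 5′ end.
H19 site 1 (chr11:2021185-2021224, minus strand): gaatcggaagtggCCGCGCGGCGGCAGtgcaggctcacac
H19 site 2 (chr11:2021997-2022036, minus strand): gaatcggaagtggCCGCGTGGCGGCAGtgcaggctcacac
H19 site 3 (chr11:2023430-2023469, minus strand): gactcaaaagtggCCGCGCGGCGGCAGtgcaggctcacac
H19 site 4 (chr11:2023831-2023870, minus strand): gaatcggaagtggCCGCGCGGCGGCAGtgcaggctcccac
H19 site 5 (chr11:2024236-2024275, minus strand): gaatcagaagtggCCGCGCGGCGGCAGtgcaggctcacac

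A second set of sequences concerns the hexamer TGCCGC, the methylation-dependent recognition sequence of ZFP57. Promoter windows of 250 bases before to 50 bases after the start site were held by RefSeq (GRCh38.p14) for 5 of the 10 genes, with 19 start sites. The hexamer (or GCGGCA on the other strand) occurred in at least 1 window of 4 of these 5 genes, and in 19.5% of 27305 genes with a window. The exception was H19, whose 1 promoter window lacked it. The cores of the 5 H19 sites printed above lie outside that window and each hold GCGGCA. The 5 genes have 1 to 5 windows each, some of them overlapping, against 35116 windows for all 27305 genes, so these shares are not like for like. A match is a description of letters and not a binding site. A whole MEG3 window and the 250 bases before a PLAGL1 start are printed because both genes had lower levels in KO NPCs, with the hexamer in capitals. MEG3 has several overlapping windows, each with the hexamer. No other PLAGL1 window held the hexamer. GRB10 and MEST also had windows with it, and in KO NPCs their log2 FC was −0.38 and 0.99, neither called. A link between the hexamer and the KO effect was not tested.
MEG3 (chr14:100825858-100826157, plus strand): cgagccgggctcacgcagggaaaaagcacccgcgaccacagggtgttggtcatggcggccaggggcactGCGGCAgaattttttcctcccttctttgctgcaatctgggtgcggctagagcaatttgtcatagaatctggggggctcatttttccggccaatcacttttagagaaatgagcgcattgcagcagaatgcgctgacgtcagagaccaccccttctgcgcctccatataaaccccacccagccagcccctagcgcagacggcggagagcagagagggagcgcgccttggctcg
PLAGL1 (chr6:144008260-144008509, minus strand): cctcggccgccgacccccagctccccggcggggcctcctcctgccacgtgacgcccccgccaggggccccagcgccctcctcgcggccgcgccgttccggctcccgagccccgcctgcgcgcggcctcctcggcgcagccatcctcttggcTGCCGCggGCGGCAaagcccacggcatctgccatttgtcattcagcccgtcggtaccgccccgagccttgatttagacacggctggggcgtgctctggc

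Levels were first compared between WT cells of the 2 types, as TPM over the exonic length of the annotation used here. In WT HEK293T cells only GRB10, PLAGL1 and CDKN1C were above 1 TPM. GRB10, an adaptor that binds insulin and IGF receptors, led with 36.9 ± 4.66 TPM (SD, n = 3), followed by PLAGL1 with 17.2 ± 5.94 TPM and CDKN1C with 3.42 ± 0.713 TPM, and the libraries of these neighbours in the order did not overlap. H19 (0.326 ± 0.113 TPM) and PEG10 (0.178 ± 0.134 TPM) followed and overlapped each other. DLK1, PEG3, NNAT and MEST had 0 counts in each of the 3 WT libraries.

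In WT NPCs the order was different and its top was far higher. MEST had 563 ± 124 TPM (SD, n = 2) and PEG10 542 ± 179 TPM, and these overlapped. NNAT followed with 162 ± 80.8 TPM. GRB10 (48.9 ± 10.6 TPM), PLAGL1 (46.6 ± 22.8 TPM), DLK1 (39.0 ± 31.5 TPM) and CDKN1C (33.6 ± 8.04 TPM) came next, and neighbours among these 4 overlapped. MEG3 (0.141 TPM), PEG3 (0.0635 TPM) and H19 (0 counts in both libraries) were at the bottom. Their levels rest on 18 counts per library or fewer, and the long exonic union of MEG3 (23224 bases) lowers its value per length.

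Of the 9 genes tested between WT NPCs and WT HEK293T cells, 7 were higher and 1 was lower in NPCs. Over all genes 40.7% were called at an adjusted P value below 0.05 and FC above 2, 25.2% higher and 15.5% lower. PEG10, a gene derived from a retrotransposon, had a log2 FC of 11.37 (SE 0.458, adjusted P value = 3.03e-09). CDKN1C, the cell cycle inhibitor p57, had a log2 FC of 3.10 (SE 0.301, adjusted P value = 3.10e-06). PLAGL1, a zinc finger transcription factor, had a log2 FC of 1.23 (SE 0.303, adjusted P value = 0.00407), which was not called without WT S5 (0.67, adjusted P value = 0.110). Against a limit of 3 counts per HEK293T library, MEST was at least 5906-fold, NNAT at least 467-fold and DLK1 at least 441-fold higher. These bounds, and that of H19 below, compare CPM scaled separately in each cell type, unlike the log2 FC values, which come from 1 fit. PEG3 was also called (adjusted P value = 0.0418), but its level in WT NPCs rests on 6 counts in WT S3 and 0 in WT S5, and the call was lost in 7 alternatives and kept in 8. The lost ones were DESeq2, voom and the fits without WT S15, WT S16, WT S17, KO S1 or KO S2 (adjusted P value = 0.0642 to 0.384). H19 was at least 1.98-fold lower (adjusted P value = 0.00644). GRB10 was not called (log2 FC 0.20, 95% interval −0.17 to 0.56, adjusted P value = 0.339). The cell types were held in separate tables, so cell type and table cannot be told apart.

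**Figure D1:**
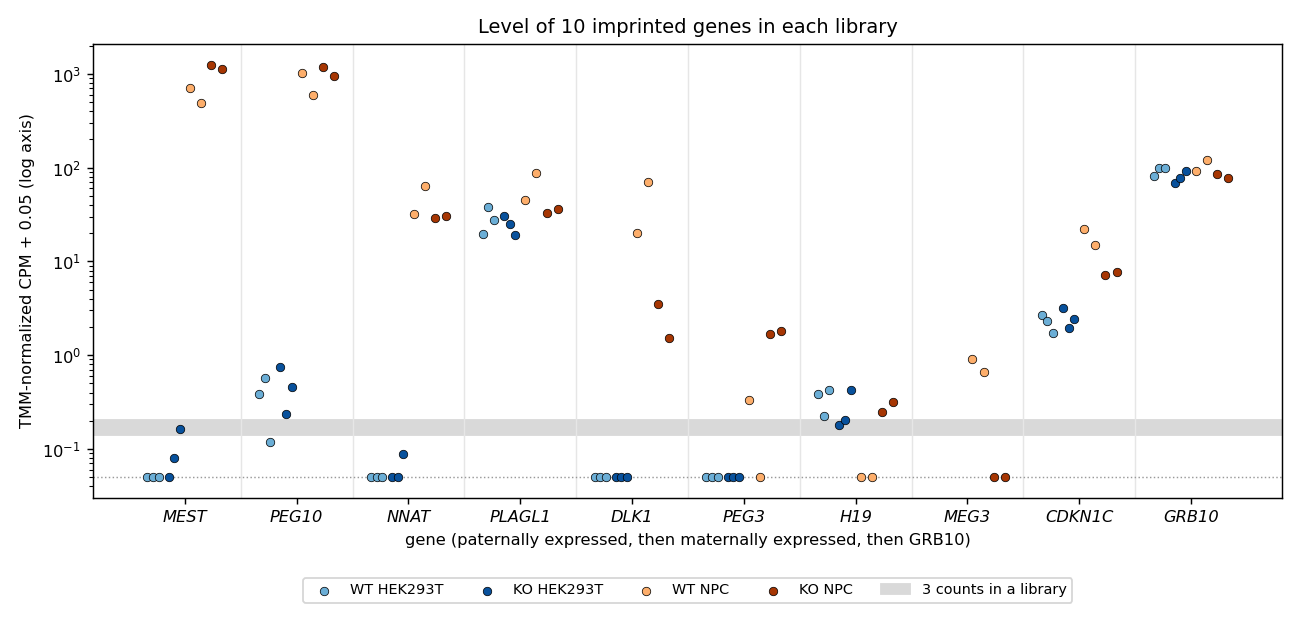
Level of each of the 10 imprinted genes in each library as CPM (counts scaled to the TMM-normalized library size) plus 0.05, on a log axis, colored by group; points on the dotted line had 0 counts, and the gray band marks 3 counts in a library. MEST, PEG10, NNAT and DLK1 are high only in NPCs. In KO NPCs DLK1, MEG3, CDKN1C, PLAGL1, GRB10 and NNAT lie below both WT libraries, while MEST, PEG3 and H19 lie above both. Of all genes tested in NPCs, 67.1% had libraries that did not overlap.

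The first KO comparison asked whether loss of ZNF274 changes these genes in HEK293T cells. None of the 5 that could be tested was called, against 0.489% of all genes tested (93 of 19018), and none of the 5 reached an unadjusted P value below 0.05, against 7.12% of all genes. With DESeq2 and with voom the number called was also 0. In all 5 genes the KO libraries overlapped the WT libraries, and 12.4% of all genes did not overlap.

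GRB10 had 2438, 2901 and 2900 counts in WT S15, S16 and S17 and 1576, 2535 and 2478 counts in KO S18, S19 and S20. This is 93.2 ± 10.2 CPM in WT and 79.8 ± 12 CPM in KO cells (SD, n = 3 each; log2 FC −0.22, 95% interval −0.57 to 0.12, adjusted P value = 0.815). PLAGL1 had 580, 1094 and 820 counts in WT and 697, 818 and 516 counts in KO libraries. Its levels were 28.3 ± 9.15 and 24.9 ± 5.58 CPM (log2 FC −0.18, 95% interval −0.73 to 0.37). CDKN1C had 78, 66 and 50 counts in WT and 72, 62 and 63 counts in KO libraries, with a log2 FC of 0.17 (95% interval −0.54 to 0.87). For these 3 genes the interval held neither a doubling nor a halving, that is, neither a log2 FC of 1 nor one of −1. Smaller changes lay within it.

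H19 and PEG10 were too low in HEK293T cells for such a limit. H19 had 10, 5 and 11 counts in WT and 3, 5 and 10 counts in KO libraries, with a 95% interval of the log2 FC from −1.86 to 1.04. PEG10 had 10, 15 and 2 counts in WT and 16, 6 and 11 counts in KO libraries, with an interval from −1.15 to 2.08. The silent genes stayed at or near 0: DLK1 and PEG3 had 0 counts in all 6 libraries, NNAT had 1 count in KO S20, and MEST had 1 count in KO S19 and 3 counts in KO S20. None of these 4 was above 3 counts in any library, which in these libraries is 0.0921 to 0.131 CPM.

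**Figure D2:**
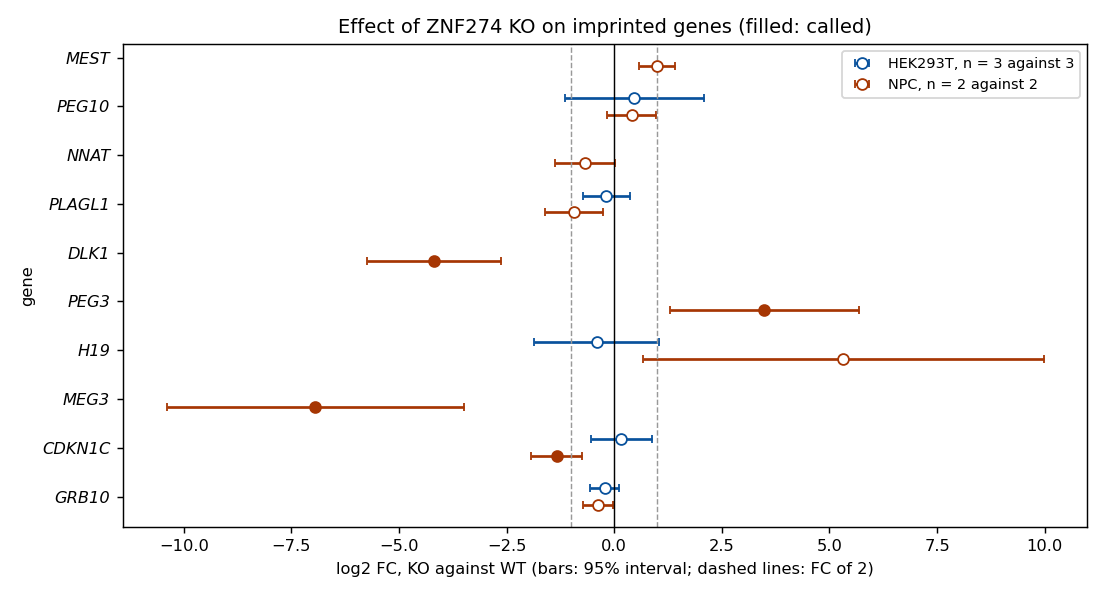
log2 FC of KO against WT cells with its 95% interval for each gene tested, in HEK293T cells (blue, n = 3 against 3) and NPCs (orange, n = 2 against 2); filled points are called and dashed lines mark an FC of 2. The 5 HEK293T points lie between −0.41 and 0.46, while in NPCs DLK1, MEG3 and CDKN1C are called lower and PEG3 higher; the NPC points of MEG3 and H19 are fitted against a group at 0 counts and their size is not a measured fold.

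The second KO comparison was made in NPCs, where the KO affected many more genes: 16.8% of all genes were called (3459 of 20577), 8.45% higher and 8.36% lower. Of the 10 imprinted genes 4 were called, PEG3 higher and DLK1, MEG3 and CDKN1C lower. Without the FC threshold 6 genes had an adjusted P value below 0.05, against 28.6% of all genes, with MEST higher and PLAGL1 lower in addition. In 9 of the 10 genes the KO libraries did not overlap the WT libraries, PEG10 being the exception, against 67.1% of all genes tested.

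DLK1, a transmembrane relative of the Notch ligands that is made from the paternal copy, had 424 counts in WT S3, 1361 in WT S5, 70 in KO S1 and 33 in KO S2. It fell from 44.9 ± 35.1 to 2.47 ± 1.39 CPM (SD, n = 2 each; log2 FC −4.19, SE 0.657, adjusted P value = 0.00383). The WT libraries differed by more than 3-fold, and both lay above both KO libraries. MEG3, the maternally expressed noncoding RNA of the same locus, had 18 and 12 counts in WT and 0 counts in both KO libraries. Its level of 0.733 ± 0.168 CPM in WT was at least 5.18-fold above the limit of 3 counts per KO library (adjusted P value = 0.0150). Both transcripts of the locus thus fell, although they are known to be made from opposite copies.

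CDKN1C, which is made from the maternal copy, had 471 and 293 counts in WT S3 and S5 and 144 and 169 counts in KO S1 and S2. It fell from 18.6 ± 5.16 to 7.36 ± 0.353 CPM (log2 FC −1.34, SE 0.247, adjusted P value = 0.00727). PEG3, itself a zinc finger gene that is made from the paternal copy, had 6 and 0 counts in WT and 33 and 39 counts in KO libraries. It rose from 0.142 ± 0.201 to 1.69 ± 0.0896 CPM (log2 FC 3.48, SE 0.928, adjusted P value = 0.0304). PEG3 shares its first exons and strand with ZIM2, and reads of shared exons cannot be told apart.

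MEST, a hydrolase-like gene named for its expression in mesoderm, had the highest mean TPM of the 10 genes in NPCs, overlapping PEG10 in WT libraries. It had 14995 and 9596 counts in WT and 25466 and 24930 counts in KO libraries, a rise from 600.5 ± 155 to 1190 ± 95.4 CPM with an adjusted P value of 0.00653. Its log2 FC of 0.99 (SE 0.177, 95% interval 0.57 to 1.40) lay just under the threshold and was not called. A doubling lay within the interval of MEST and outside those of the other genes with counts in both groups. A halving lay within those of CDKN1C, PLAGL1 and NNAT. The intervals of H19 and MEG3 are fitted against a group at 0 counts and were not read in this way. PLAGL1 had 944 and 1703 counts in WT and 672 and 799 counts in KO libraries. Its level was 65.9 ± 30.04 CPM in WT and 34.6 ± 1.98 CPM in KO cells (log2 FC −0.93, SE 0.285, adjusted P value = 0.0486), also within an FC of 2.

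The other 4 genes did not pass. NNAT, a small membrane protein of the developing brain, had 673 and 1233 counts in WT and 585 and 672 counts in KO libraries (log2 FC −0.68, 95% interval −1.37 to 0.01, adjusted P value = 0.127). GRB10 had 1961 and 2339 counts in WT and 1752 and 1702 counts in KO libraries (log2 FC −0.38, 95% interval −0.73 to −0.03, adjusted P value = 0.102). PEG10 had 21639 and 11765 counts in WT and 24285 and 21297 counts in KO libraries (log2 FC 0.41, 95% interval −0.16 to 0.97, adjusted P value = 0.248). A doubling or halving lay outside the intervals of GRB10 and PEG10. H19 was at 0 in WT S3 and S5 and had 4 and 6 counts in KO S1 and S2, at least 1.58-fold above the limit of 3 counts per WT library (adjusted P value = 0.0884).

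The NPC calls depended on single libraries. Of the 10 genes, 7 were called without WT S3, 4 without WT S5, 1 (DLK1) without KO S1 and 3 without KO S2. Over all genes the same fits called 3937, 4038, 2084 and 2360, against 3459 with every library. The log2 FC of PEG3 ran from 2.54 without WT S5 to 8.13 without WT S3, where the remaining WT library had 0 counts. PEG3 was not called without KO S1 (adjusted P value = 0.114) or without KO S2 (0.118), nor was MEG3 (0.0614 and 0.0588), and CDKN1C was not called without KO S1 (0.0722). DLK1 was called in each of these fits, with a log2 FC of −4.91 to −3.04. MEST was called without WT S3 (1.28) and without KO S2 (1.05), and also with voom (1.01) and in the fit of all 10 libraries (1.001). PLAGL1 was called without WT S3 (−1.33) and when scaled by total counts only (−1.04), and NNAT without WT S3 (−1.09). H19 was called in the fit of all 10 libraries (adjusted P value = 0.0287). With libraries left out the log2 FC ran from −1.33 to −0.38 for PLAGL1, from −1.09 to −0.11 for NNAT, from 0.74 to 1.28 for MEST and from 0.07 to 0.84 for PEG10. The adjusted P value of PLAGL1 then rose as high as 0.206 and that of MEST as high as 0.0592, past 0.05 in both.

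The NPC libraries also differed in cell type markers. Of 11 neural progenitor markers tested, 8 were lower in KO libraries and 0 higher, against 8.36% and 8.45% of all genes. SOX1 had 154 and 989 counts in the WT and 1 and 2 counts in the KO libraries, FABP7 fell from 284 to 2.76 CPM, and NES was not called (2630 and 3135 CPM). HES5 had 4 to 6 counts in the WT and 0 in the KO libraries and was not called. The summed level of that list, most of it NES, was 2954 to 4050 CPM in WT and 3191 to 3257 CPM in KO libraries. Of 12 mesenchymal markers, 6 were higher and 0 lower, against 8.45% and 8.36% of all genes. COL1A1 (601 to 3480 CPM) and COL3A1 (68.7 to 829 CPM) were among the 6, while COL1A2 (953 and 1003 CPM) was not called. Sums of that list were 2427 to 3021 CPM in WT and 8781 to 9616 CPM in KO libraries. The part of these differences in the changes of the imprinted genes was not tested, and in bulk RNA fewer cells of a type cannot be told apart from less RNA per cell. In HEK293T cells no gene of either marker list was called, against 0.489% of all genes.

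Whether the KO effect itself differed between the cell types was tested in one fit of all 10 libraries, for the 5 genes tested in both. It differed for CDKN1C and H19, 2 of 5, against 15.1% of all genes. For CDKN1C the effect in NPCs minus that in HEK293T cells was −1.49 on the log2 scale (SE 0.427, 95% interval −2.41 to −0.56, adjusted P value = 0.0348). For H19 it was 6.04 (adjusted P value = 0.0458) but rests on 0 to 11 counts per library, so its size has no measured meaning. GRB10 (−0.14, 95% interval −0.66 to 0.38), PLAGL1 (−0.73, 95% interval −1.68 to 0.22) and PEG10 (0.01, 95% interval −2.42 to 2.45) did not pass. Neither call was stable: CDKN1C was lost without WT S16, WT S17, KO S20, WT S3, KO S1 or KO S2 (adjusted P value = 0.0525 to 0.144), and H19 without WT S15, WT S17, KO S18, KO S19, WT S3, WT S5, KO S1 or KO S2 (0.0601 to 0.124), and DESeq2 gave H19 no adjusted P value.

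The genes around the imprinted loci were read next, taking every tested gene whose annotated span lies within 500 kb of 1 of the 10. In HEK293T cells 8 of 84 neighbours were called (9.52%, against 0.489% of all genes), all higher (0.478% of all genes in that direction) and all beside PEG3. The 8 were among 25 tested neighbours of PEG3 on chromosome 19, whose log2 FC had a median of 1.32 against 0.01 over all genes. All 8 lay among the 15 on the centromeric side and none among the 10 on the telomeric side. All 8 were also among the 18 neighbours with zinc finger symbols, of which 13 were centromeric and 5 telomeric. The paper reports that most protein-coding genes raised in ZNF274 KO HEK293T cells encode KZFPs. The neighbours were compared with all genes and not with zinc finger genes elsewhere. PEG3 (chr19:57321445-57352096, hg19) had 0 counts in all 6 libraries throughout.

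ZNF667 had 0 counts in each WT library and 49 to 141 counts in KO libraries, at least 35.8-fold above the limit of 3 counts per library (adjusted P value = 0.000894). ZNF667-AS1, its divergent antisense neighbor, had 0 to 4 counts in WT and 134 to 246 counts in KO libraries (log2 FC 7.03, SE 0.662, adjusted P value = 0.000399). ZFP28 rose from 2.58 ± 0.448 to 16.9 ± 3.50 CPM (log2 FC 2.71, SE 0.249, adjusted P value = 0.000356). ZNF582-DT (log2 FC 3.67), ZNF471 (2.51), ZNF583 (1.92), ZNF582 (1.72) and ZNF470 (1.62) rose as well. Without WT S16 only 3 neighbours were called and without WT S15 only 5.

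**Figure D3:**
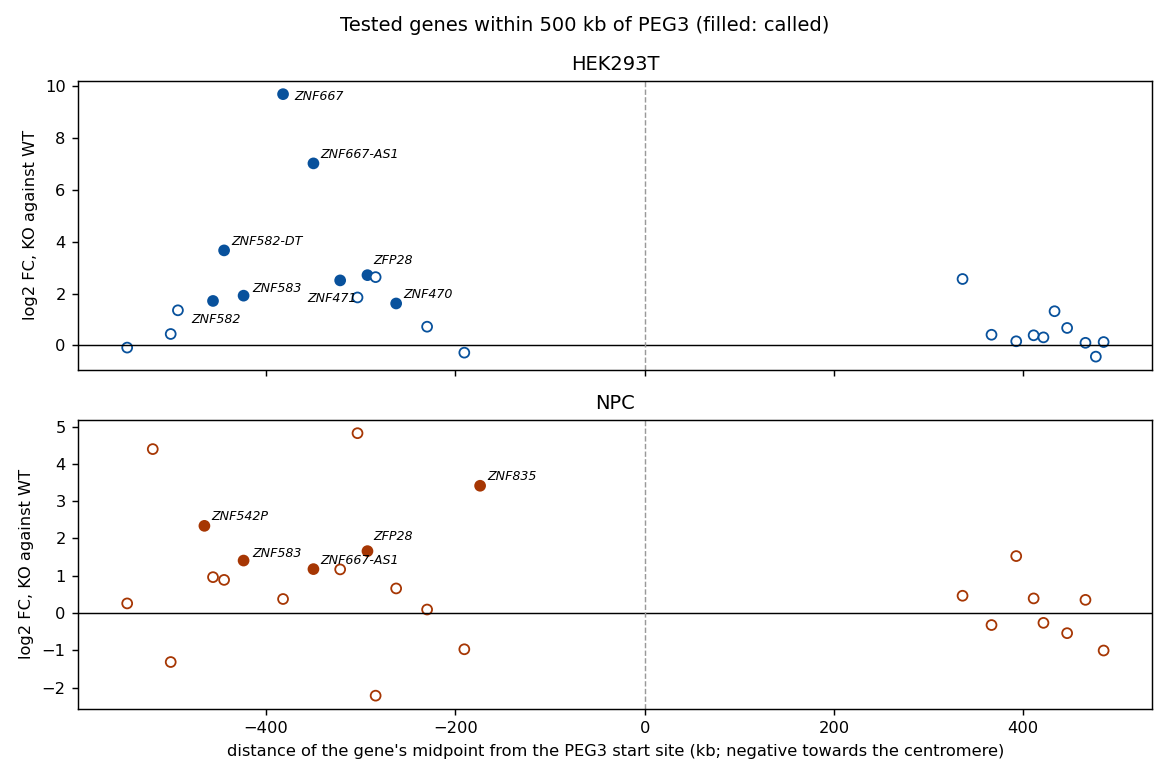
log2 FC of KO against WT for the 25 tested genes within 500 kb of PEG3 in HEK293T cells (top) and the 25 in NPCs (bottom), by distance of the gene midpoint from the PEG3 start in kb; filled points are called. All 8 called genes in HEK293T cells and all 5 in NPCs lie on the centromeric side and have zinc finger symbols. The height of ZNF667 in HEK293T cells is fitted against 0 WT counts and is not a measured fold.

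In NPCs 19 of 96 neighbours were called (19.8%, against 16.8% of all genes), 15 higher and 4 lower. Near PEG3 5 of 25 were higher, all among the 17 on the centromeric side and none among the 8 on the telomeric side. All 5 were among the 19 with zinc finger symbols, of which 15 were centromeric and 4 telomeric. ZFP28 rose from 14.7 ± 1.03 to 46.3 ± 8.61 CPM (log2 FC 1.66, adjusted P value = 0.000860), ZNF583 from 6.37 ± 1.04 to 16.9 ± 1.76 CPM (log2 FC 1.41, adjusted P value = 0.00404) and ZNF667-AS1 from 16.2 ± 0.877 to 36.8 ± 5.93 CPM (log2 FC 1.18, adjusted P value = 0.00286). These 3 genes were called in both cell types, which is 3 of the 8 in HEK293T cells and 3 of the 5 in NPCs. ZNF542P (log2 FC 2.34) and ZNF835 (3.41, 0 to 4 counts in WT) completed the 5, the latter named after its value was seen.

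Near H19 5 of 16 neighbours were higher, IGF2 foremost. IGF2, the paternally expressed fetal growth factor, had 76 counts in WT S3, 115 in WT S5, 11464 in KO S1 and 10512 in KO S2. It rose from 4.74 ± 1.62 to 520 ± 65.6 CPM (log2 FC 6.78, SE 0.250, adjusted P value = 2.27e-05), and leaving out any NPC library kept its log2 FC between 6.46 and 7.16. H19, which is made from the other copy, had 4 and 6 counts in the same KO libraries. IGF2-AS (0 counts in WT, 13 to 18 in KO) overlaps IGF2 on the other strand. TNNT3, a troponin of fast muscle, had 0 to 1 counts in WT and 24 to 34 in KO libraries, and LSP1 had 2 to 4 and 24 to 29 counts. In HEK293T cells IGF2 had 19 to 41 counts in WT and 38 to 68 in KO libraries and was not called (log2 FC 0.92, adjusted P value = 0.717), and 0 of 14 neighbours of H19 were called.

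Beside CDKN1C 1 of 10 neighbours was called. PHLDA2, a growth regulator of the placenta in the same imprinted domain and also made from the maternal copy, rose from 2.78 ± 0.919 to 26.9 ± 2.74 CPM (log2 FC 3.28, SE 0.271, adjusted P value = 0.000306) while CDKN1C fell. Beside MEST 3 of 12 were higher. CPA4, a carboxypeptidase gene, had 11 and 13 counts in the WT and 2649 to 3164 counts in the KO libraries (log2 FC 7.85, SE 0.240, adjusted P value = 1.91e-05). Around DLK1 and MEG3 2 of 9 were lower and 0 higher. RTL1, a retrotransposon-derived gene made from the paternal copy, had 35 to 57 counts in WT and 3 to 13 in KO libraries (log2 FC −2.56, SE 0.717, adjusted P value = 0.0362). Its call was lost without KO S2, and with libraries left out its log2 FC ran from −4.02 to −1.83. SLC25A29 had a log2 FC of −1.30 (adjusted P value = 0.0164). PHACTR2 beside PLAGL1 was higher (log2 FC 1.71, adjusted P value = 0.0169). Beside NNAT 2 of 9 were lower, VSTM2L (log2 FC −1.05, adjusted P value = 0.0318) and MROH8 (log2 FC −1.36, adjusted P value = 0.0355), both named after their values were seen. None of the neighbours of PEG10 (5 tested) or GRB10 (4 tested) was called. Of all 96 neighbours, 11 were called without KO S1 and 10 without KO S2.

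Further imprinted genes were taken from a list of 36, several of which lie at the loci of the 10 genes, and IGF2, PHLDA2 and RTL1 were already counted as neighbours. In HEK293T cells 0 of 25 tested members were called (DESeq2 and voom also 0), against 0.489% of all genes, and 1 reached an unadjusted P value below 0.05, against 7.12%. In NPCs 9 of 26 were called, 5 higher and 4 lower, against 16.8% of all genes, and the median log2 FC of the list was −0.13 against −0.02 over all genes. IGF2 and PHLDA2 rose as given above. IGF2R, the receptor that clears IGF2 and is expressed from both copies in most humans, rose from 177 ± 26.1 to 419 ± 26.7 CPM (log2 FC 1.24, SE 0.132, adjusted P value = 0.000809). NAP1L5 rose from 9.50 ± 1.56 to 21.0 ± 1.998 CPM (log2 FC 1.14, adjusted P value = 0.00656) and FAM50B from 2.49 ± 0.172 to 5.47 ± 1.24 CPM (log2 FC 1.14, adjusted P value = 0.0361).

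The 4 members that fell included RTL1 and DIO3, both of the DLK1 and MEG3 domain. DIO3, a deiodinase that inactivates thyroid hormone, had 30 to 66 counts in WT and 4 counts in both KO libraries (log2 FC −3.62, SE 0.662, adjusted P value = 0.00707). The paternally expressed DLK1, RTL1 and DIO3 and the maternally expressed MEG3 of that domain were thus all lower, though the call of DIO3 was lost without KO S1 (adjusted P value = 0.0533) or KO S2 (0.0507), as were those of RTL1 and MEG3 in the fits given above. TFPI2 fell from 46.8 ± 9.72 to 12.9 ± 1.54 CPM (log2 FC −1.86, adjusted P value = 0.000788) and GNAS-AS1 from 3.24 ± 0.631 to 1.22 ± 0.0536 CPM (log2 FC −1.40, adjusted P value = 0.0318). Without the FC threshold 12 of the 26 had an adjusted P value below 0.05, against 28.6% of all genes, with INPP5F (log2 FC 0.60, adjusted P value = 0.0440), BLCAP (0.63, 0.0165) and COPG2 (−0.60, 0.0157) in addition. GNAS, the most abundant, had 984 CPM in WT and 1291 CPM in KO cells (adjusted P value = 0.0762), and RB1 had 99.9 and 89.8 CPM (0.310). Without KO S1 or without KO S2 5 members were called. NAP1L5 was lost in 2 alternatives, GNAS-AS1 in 3 and FAM50B in 4. IGF2, PHLDA2, IGF2R and TFPI2 were called in every alternative run. The marker genes given above moved with these values in the same 4 libraries, and their part was not tested here either.

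**Figure D4:**
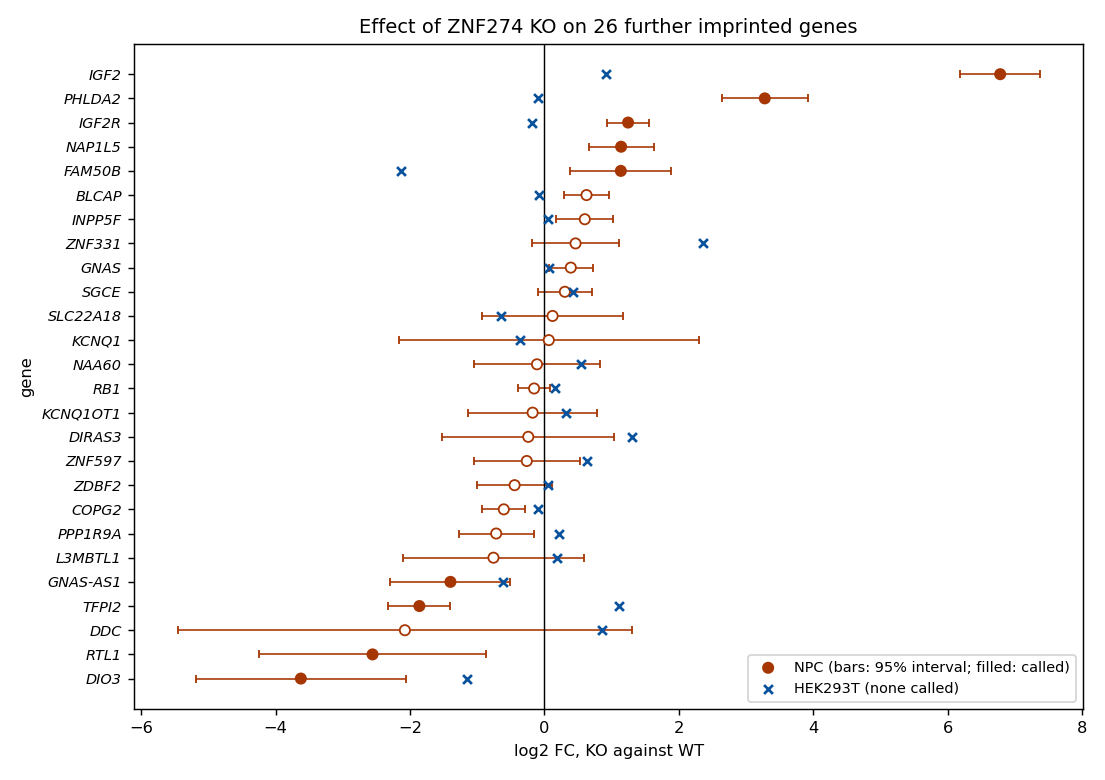
log2 FC of KO against WT in NPCs (circles, bars 95% interval, n = 2 against 2; filled if called) for 26 further imprinted genes, with the HEK293T value as a cross where it was tested (n = 3 against 3; none called). IGF2 (6.78) and PHLDA2 (3.28) lie highest and DIO3 (−3.62) and RTL1 (−2.56) lowest in NPCs.

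The factors that keep imprints were read last. In HEK293T cells 0 of 8 tested were called, against 0.489% of all genes, and 1 was at an unadjusted P value below 0.05, against 7.12%. That gene was TRIM28, the corepressor shared by ZNF274 and ZFP57, with 30751, 23624 and 29268 counts in WT and 7160, 11505 and 22644 counts in KO S18, S19 and S20 (log2 FC −0.90, SE 0.311, adjusted P value = 0.537), and it was called without KO S20. In NPCs 1 of 10 was called, against 16.8% of all genes. It was NLRP5, an oocyte gene with 0 counts in WT and 56 and 60 counts in KO libraries, at least 18.5-fold higher. TRIM28 (log2 FC −0.61, adjusted P value = 0.00620), SETDB1 (−0.61, adjusted P value = 0.00877) and ARID4A (−0.83, adjusted P value = 0.0218) were lower within an FC of 2. DNMT1, the maintenance methyltransferase, had 134 CPM in WT and 128 CPM in KO cells, and CTCF had 105 and 97.3 CPM. ZFP57 had 1 to 3 counts in WT NPCs and 5 to 9 in KO NPCs and was not called, and ZNF445 had 23.3 and 21.6 CPM.

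For each gene except MEG3, which was not analysed here in HEK293T cells, the most similar other gene was found by Pearson's r of log2 CPM over the 10 libraries, among 11830 genes with a mean of at least 1 CPM in both cell types. MEST was nearest to NUAK2 (r = 0.998), NNAT to IDS (0.998), PEG10 to ITGB1 (0.997), CDKN1C to FJX1 (0.995) and DLK1 to SLC4A8 (0.995). PEG3 was nearest to ST3GAL5 (0.987), H19 to MESD (0.969), PLAGL1 to TNFAIP3 (0.952) and GRB10 to MDGA2 (0.903). The libraries fall into the same 2 cell types for every pair, so r describes these libraries and no more.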

How the data were processed

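Poly(A) RNA-seq of 10 libraries was analysed. The authors aligned reads to hg19 (HISAT2) and assigned those with a unique position to genes (featureCounts); versions, the annotation release and the use of strand in counting are not given in the sources used here. The deposited values are raw counts, in a table for each cell type. Genes were placed with GENCODE lifted to GRCh37 (23273 of 24050 identifiers matched).

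Genes with a total count of at least the number of libraries entered edgeR's two-sided quasi-likelihood test (edgeR 4.0.16, R 4.3.3) after TMM scaling, separately for the cell types, with Benjamini-Hochberg adjustment over all of them. Calls needed FC above 2 and an adjusted P value below 0.05. The difference between cell types and the WT comparison were fitted over all 10 libraries and the 19255 genes tested from both tables, the former without an FC threshold. The study's methods use voom, run here as an alternative (limma 3.58.1), beside DESeq2 1.42.0, other normalizations and filters, 1 joint fit, windows of 250 kb and 1 Mb, and each library left out. Standard errors come from the log2 FC and F statistic, CPM from TMM-normalized libraries, TPM from exonic lengths. A gene at 0 is bounded by 3 counts per library, which covers counting error only. The 95% intervals come from the fits and include the spread between libraries. The fits were tested on simulated data.

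The members and all gene lists were chosen with earlier results of these data known. Named are the 10 members, listed genes past the threshold plus up to 4 per list by level, up to 12 neighbours by adjusted P value, ZNF274, and the most similar gene of each member. The values of 2 marker genes are not reported here.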

Additional observations from a re-analysis of the deposited data

Results flagged for a closer look

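The effect of the KO differed between the cell types for 2 of the 5 genes tested in both, as an interaction term over all 10 libraries, against 15.1% of all genes. The difference, NPC minus HEK293T, was −1.49 on the log2 scale for CDKN1C (adjusted P value = 0.0348), a call lost in 6 alternatives. It was 6.04 for H19 (adjusted P value = 0.0458), lost in 8 alternatives. The H19 value rests on 0 to 11 counts per library with 0 in both WT NPC libraries, so its size has no measured meaning.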

How the results depend on the processing

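Counts of called genes moved with single libraries. Leaving out 1 library gave 1 to 7 of the 10 genes in NPCs, 5 to 9 further imprinted genes in NPCs, 0 to 1 maintenance factor in HEK293T cells and 1 to 2 in NPCs, 3 to 8 neighbours in HEK293T cells and 10 to 22 in NPCs, and 0 to 1 gene whose KO effect differed between cell types. Where 1 NPC library was left, it is assumed to vary like the others. The interaction count was 1 with DESeq2, which gave H19 no adjusted P value, and 1 with filterByExpr. Without the FC threshold 4 maintenance factors passed in NPCs. Neighbours in NPCs numbered 9 in the joint fit, which holds fewer genes, 12 within 250 kb and 29 within 1 Mb, and 1 in HEK293T cells within 250 kb. In HEK293T cells leaving out libraries gave log2 FC from −0.057 to 1.06 for PEG10, −0.043 to 0.34 for CDKN1C and −0.39 to 0.082 for PLAGL1, each crossing 0; the PEG10 value was −0.0050 without WT S17. The PEG10 interaction was −0.048 with DESeq2, −0.13 with voom, −0.19 with library size alone, −0.026 with filterByExpr and −0.57 to 0.51 with libraries left out; that of GRB10 was −0.31 to 0.036. The cause of these shifts was not tested. Over all genes in HEK293T cells 164 were called by DESeq2 and 44 to 116 with a library left out, against 93. PEG3 gave no WT comparison without WT S3. No paired analysis was possible because the groups share no library numbers. At this depth genes under 3 counts per library cannot be read.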
